A study of Homo sapiens with 5 samples.

Results

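Luminal breast epithelium is kept by a small set of steroid hormone receptors and transcription factors, and 8 genes of that set were read out in MDA-MB-231 cells given the histone deacetylase inhibitor SAHA. They were the oestrogen receptor genes ESR1 and ESR2, the progesterone receptor gene PGR, the transcription factor genes GATA3, FOXA1, ELF3 and SPDEF, and TFF1, which encodes a secreted peptide. Members were every probe set that the array annotation pairs with 1 of these symbols alone. This gave 31 of 54613 probe sets, and 8 of 19775 genes that have a single-gene probe set. MDA-MB-231 is an established human breast cancer line that lacks the oestrogen receptor, and the question put to the data is whether inhibiting histone deacetylases raises luminal genes in such a line. Cells with SAHA at 2 uM for 30 h gave 2 arrays, and cells with the vehicle DMSO for 30 h gave 3 arrays. No genotype or allele other than that of the line is given for either group. Whether the replicates were grown separately is not stated, so every p-value reflects the spread among these 5 arrays alone, and that spread may be technical.

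In luminal cells the oestrogen receptor alpha made from ESR1 binds chromatin that the pioneer factor FOXA1 has opened, and the zinc finger factor GATA3 works with both. PGR and TFF1 are textbook targets of oestrogen in breast cancer cells. ELF3 and SPDEF are ETS-family transcription factors of epithelial cells. SAHA (vorinostat) blocks the enzymes that take acetyl groups off histones and other proteins.

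Each array had a median intensity of 88.7 to 91.1, and the number of arrays limits the precision. Pearson's r across probe sets, which are not independent replicates, was 0.9968 to 0.998 within a group and 0.9824 to 0.984 between groups. On the array DMSO 1 the actin control probe sets had a 3' minus 5' difference of 3.29 on the log2 scale, against 2.04 to 2.22 on the other 4 arrays. The 6 genes used to mark the mesenchymal line (VIM, CD44, AXL, CAV1, MSN and EGFR) lay at percentiles 91.8 to 99.6 of the mean level over all probe sets. Of the genes taken as dim in a receptor-negative line, CDH1 lay at percentile 28.2, PGR at 7.75 and 16.8 and ESR1 at 3.22 to 58.8 over its probe sets, but EPCAM lay at 88.2 and was not dim. ERBB2 lay at 79.1 on its brightest probe set and at 27.2 and 28.2 on its other 2. Of 9 genes that mark leukocytes, endothelium, adipocytes or fibroblasts, 8 were measured, at percentiles 2.99 to 66.4. Their summed intensity was 661.1 and 680.5 on the SAHA arrays, against 562.4 to 596.7 on the DMSO arrays. Among the 8, only CD14, a monocyte receptor, was called higher (0.87 on the log2 scale, averaging 7.79 in SAHA cells and 6.92 in DMSO cells). Only PTPRC, the leukocyte antigen CD45, was called lower (-0.34), and 6 were not called. The labels of all 5 arrays name MDA-MB-231 alone. The part of other cell types in the results below was not tested. In a bulk sample, fewer cells of a type and less RNA per cell cannot be told apart.

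All values here are log2 intensities, folds are SAHA minus DMSO on that scale, and a probe set is called where limma's Benjamini-Hochberg adjusted p over all probe sets is under 0.05. Of the 31 member probe sets, 3 were called higher and 2 lower, and 26 were not called. The 3 higher probe sets were all of ELF3 and the 2 lower ones were of GATA3. Across all probe sets 9.01% were called higher and 9.05% lower, against 9.68% and 6.45% of the members, so the member shares were near the background. The median fold was -0.03 over the members and -0.03 over all probe sets. Read from the brightest probe set of each gene, 1 gene rose and 1 fell of 8, where the background was 12.0% higher and 13.5% lower. Both SAHA arrays lay above all DMSO arrays for 3 member probe sets and below all of them for 3, where the background was 18.2% and 21.0%. In the 3 fits that each left out 1 DMSO array, 0 to 2 member probe sets were called higher (0 without DMSO 3). In these fits 0 to 1 were called lower (0 without DMSO 2 or DMSO 3). Calls over all probe sets, given in the closing section, were also fewer in both directions in these fits. The fits without a SAHA array kept 1 SAHA array, and the lower calls without SAHA 2 were not of GATA3. They were of ESR2 211117_x_at (fold -0.23) and 211120_x_at (-0.15) and SPDEF 213442_x_at (-0.15), whose DMSO arrays were equal or nearly so. Without SAHA 1 these folds were 0.12, -0.27 and 0.

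**Figure D1:**
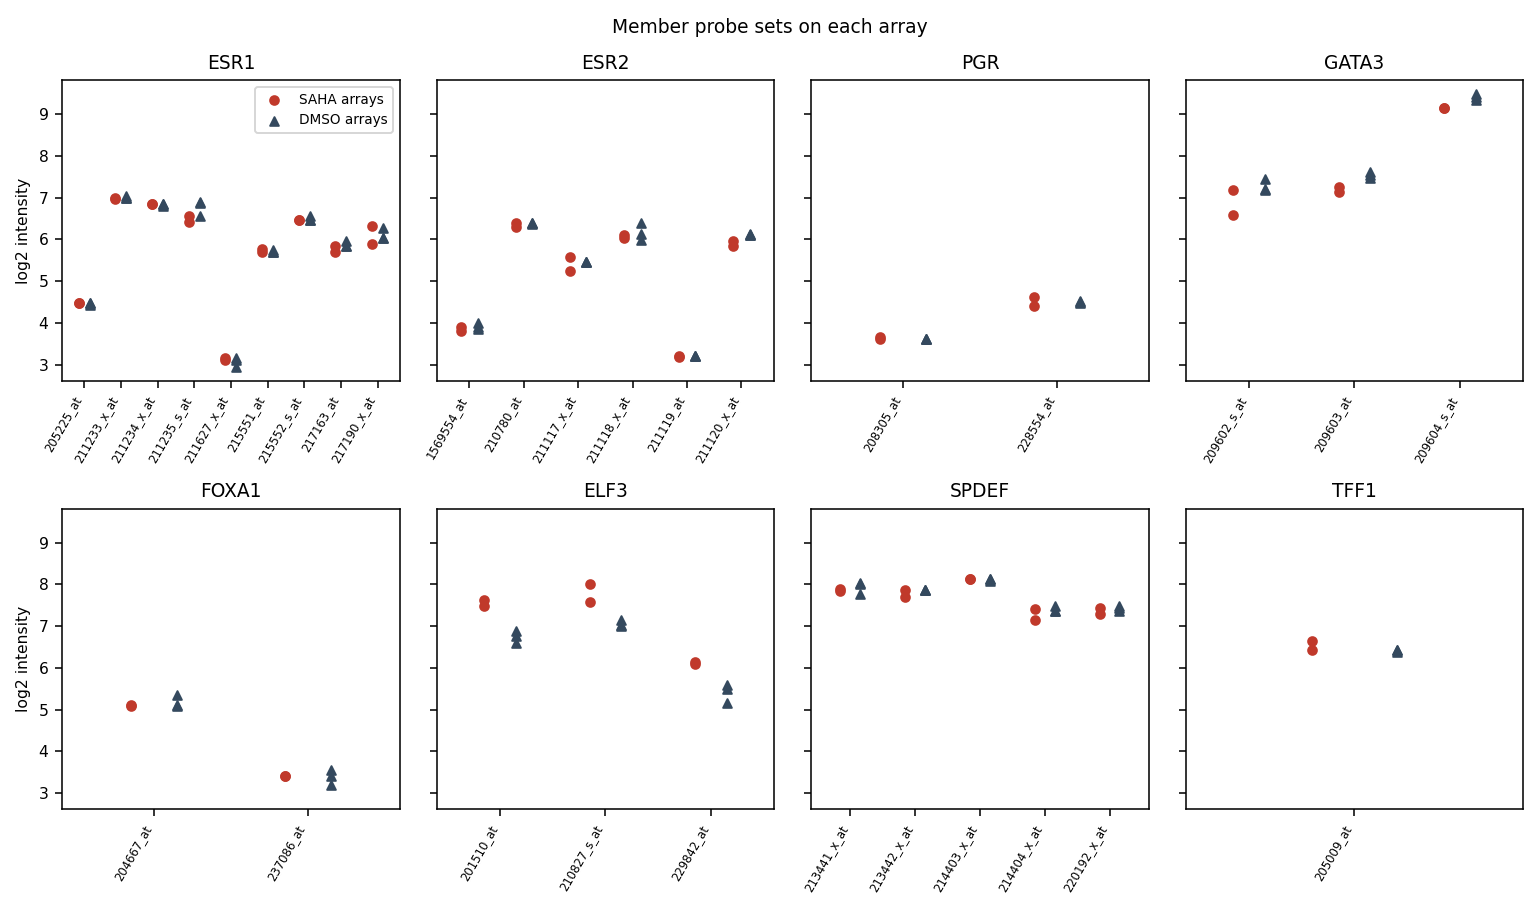
Log2 intensity (vertical axis) of the 31 member probe sets (horizontal axis) on each array, with SAHA arrays as circles and DMSO arrays as triangles. The 2 SAHA arrays sit above the 3 DMSO arrays for all 3 ELF3 probe sets, and below them for the GATA3 probe sets 209603_at and 209604_s_at.

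ESR1, which encodes the nuclear receptor that defines oestrogen receptor-positive tumours, was not called on any of its 9 probe sets. Its brightest probe set, 211233_x_at, read 6.99 and 6.97 on the SAHA arrays, against 6.99, 7.04 and 6.99 on the DMSO arrays. The groups overlapped, and the fold was -0.03 (95% interval -0.13 to 0.07; limma adjusted p = 0.661). The probe set 205225_at read 4.47 and 4.47 in SAHA cells, against 4.47, 4.42 and 4.47 in DMSO cells, so 4 of the 5 arrays held the same value. Its level lay at percentile 16.3 of all probe sets, and its fold was 0.02 (limma adjusted p = 0.798). Folds of the 9 probe sets ran from -0.28 to 0.06, and the highest upper limit of their 95% intervals was 0.41, a 1.33-fold rise. The lowest fold was that of 211235_s_at, with 6.56 and 6.42 in SAHA cells, against 6.56, 6.89 and 6.87 in DMSO cells (limma adjusted p = 0.248). Here SAHA 1 and DMSO 1 shared the same value, so the groups touched. Of the 9 probe sets, 6 have names ending in _x_at or _s_at, which marks sequence that can be shared between transcripts or genes.

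ESR2 encodes oestrogen receptor beta, which binds the same DNA element as the alpha form. None of its 6 probe sets was called, and their folds were -0.21 to -0.01. The brightest, 210780_at, read 6.31 and 6.39 on the SAHA arrays, against 6.40, 6.37 and 6.39 on the DMSO arrays (fold -0.04, 95% interval -0.15 to 0.08, limma adjusted p = 0.621). The groups overlapped. The probe set 211120_x_at read 5.96 and 5.85 in SAHA cells, against 6.11, 6.11 and 6.13 in DMSO cells. Both SAHA arrays lay below all DMSO arrays there, and the fold was -0.21 ± 0.05 (SE), which just missed the threshold (limma adjusted p = 0.0517). It passed when dim probe sets were left out (0.0397), without SAHA 1 (0.0358) and without SAHA 2 (0.0469). With all arrays fitted, no other ESR2 probe set had an unadjusted p under 0.05. The fold of 211117_x_at was -0.23 without SAHA 2 and 0.12 without SAHA 1.

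PGR, the progesterone receptor, was dim and not called on either probe set. On 228554_at it read 4.41 and 4.62 in SAHA cells, against 4.52, 4.49 and 4.47 in DMSO cells. The SAHA arrays lay on either side of the DMSO arrays, and the fold was 0.02 (95% interval -0.17 to 0.22; limma adjusted p = 0.866). On 208305_at the SAHA arrays read 3.66 and 3.61, against 3.61 on all 3 DMSO arrays (fold 0.03, limma adjusted p = 0.670). These probe sets lay at percentiles 16.8 and 7.75 of level. The upper limit of the intervals corresponded to a 1.16-fold rise.

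FOXA1, whose protein opens chromatin for the oestrogen receptor, was likewise not called. The probe set 204667_at read 5.08 and 5.11 in SAHA cells, against 5.34, 5.11 and 5.09 in DMSO cells (fold -0.08, 95% interval -0.33 to 0.16, limma adjusted p = 0.583). The groups overlapped, with DMSO 1 the highest array. On 237086_at, at percentile 5.70 of level, both SAHA arrays read 3.41, and the DMSO arrays read 3.19, 3.55 and 3.41 (fold 0.02, limma adjusted p = 0.923).

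GATA3, which specifies the luminal lineage and is lost in many basal tumours, fell by a small amount. Its brightest probe set, 209604_s_at, read 9.16 and 9.15 on the SAHA arrays, against 9.34, 9.49 and 9.42 on the DMSO arrays. Both SAHA arrays lay below all DMSO arrays. The fold was -0.26 ± 0.06 (SE), or 1.20-fold down (95% interval -0.41 to -0.11; limma adjusted p = 0.0468). The probe set 209603_at averaged 7.20 ± 0.09 in SAHA cells (SD, n = 2) and 7.55 ± 0.07 in DMSO cells (SD, n = 3). The groups did not overlap, and the fold was -0.34 ± 0.07 (SE), or 1.27-fold down (limma adjusted p = 0.0331). The remaining probe set, 209602_s_at, read 7.19 and 6.60 in SAHA cells, against 7.45, 7.19 and 7.20 in DMSO cells, and was not called (fold -0.39 ± 0.21, SE, limma adjusted p = 0.322). There SAHA 1 shared the value of DMSO 2, and SAHA 2 lay below all other arrays.

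The GATA3 calls were close to the threshold. For 209603_at the call ended with each of the 5 arrays left out in turn, at limma adjusted p = 0.0742 to 0.128 and folds of -0.41 to -0.28. For 209604_s_at it ended without SAHA 1, SAHA 2, DMSO 2 or DMSO 3 (limma adjusted p = 0.0977 to 0.164). With array weights neither was called (limma adjusted p = 0.0536 and 0.0711), and with an intensity trend and robust variance 209604_s_at was not (0.0552). GATA3-AS1, the gene that runs antisense next to GATA3 and was named after its values were seen, was not called. Its probe sets 240192_at and 240827_at had folds of -0.06 and 0.12 (limma adjusted p = 0.816 and 0.461). Both were dim, at percentiles 10.5 and 24.7 of level, so a small change there may not be measurable.

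ELF3, an ETS factor of epithelial cells, rose on all 3 of its probe sets. The probe set 201510_at read 7.63 and 7.48 on the SAHA arrays, against 6.59, 6.89 and 6.76 on the DMSO arrays. Its fold was 0.81 ± 0.11 (SE), or 1.75-fold (95% interval 0.52 to 1.10; limma adjusted p = 0.0128). The brightest probe set, 210827_s_at, read 7.58 and 8.01 in SAHA cells, against 7.16, 7.01 and 7.02 in DMSO cells (fold 0.73 ± 0.15, SE, 1.66-fold, limma adjusted p = 0.0356). The third, 229842_at, read 6.09 and 6.15 in SAHA cells, against 5.60, 5.16 and 5.50 in DMSO cells (fold 0.70 ± 0.15, SE, 1.63-fold, limma adjusted p = 0.0418). In each case both SAHA arrays lay above all 3 DMSO arrays. The array that read highest was SAHA 1 on 201510_at, but SAHA 2 on the other probe sets. With the 3 probe sets averaged, the gene's fold was 0.75 (limma adjusted p = 0.00102).

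Each ELF3 call ended in most of the fits that left out 1 array, and such fits have fewer residual degrees of freedom. For 201510_at the call ended without SAHA 1 (limma adjusted p = 0.0989), SAHA 2 (0.0654) or DMSO 3 (0.0743). That of 210827_s_at ended with any array but SAHA 1 left out (limma adjusted p = 0.0613 to 0.149), and that of 229842_at with any but DMSO 2 (0.0711 to 0.184). Folds stayed between 0.52 and 0.95 in all of these fits. Centred on the poly-A control RNAs, which moves every probe set by -0.47 and the median of all to -0.49, the ELF3 folds were 0.24 to 0.34. Only 201510_at was then called (limma adjusted p = 0.0103, against 0.0776 and 0.133). With array weights 229842_at was no longer called (limma adjusted p = 0.0757).

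**Figure D2:**
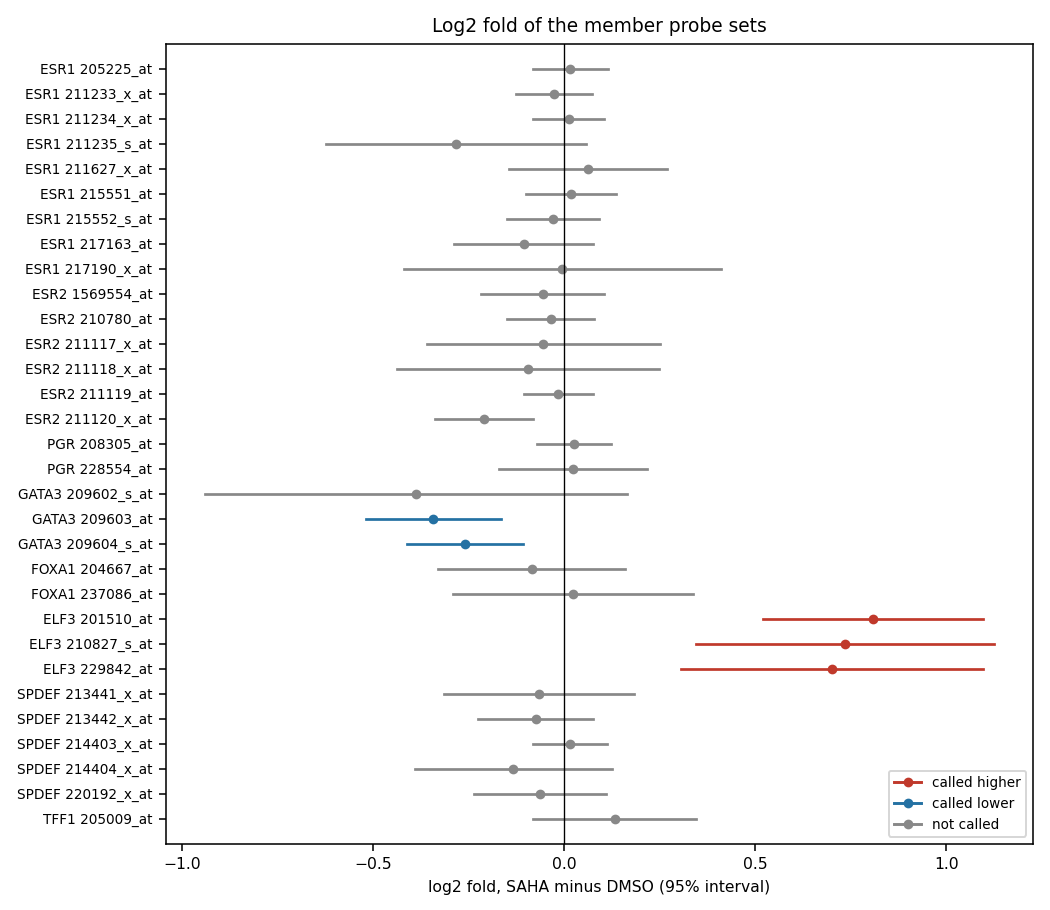
Log2 fold, SAHA minus DMSO (horizontal axis), of the 31 member probe sets, with points for the limma estimate and bars for its 95% interval. The intervals of the 3 ELF3 probe sets lie above 0, those of 2 GATA3 probe sets and of ESR2 211120_x_at lie below 0, and the other 25 cross 0.

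**Figure D3:**
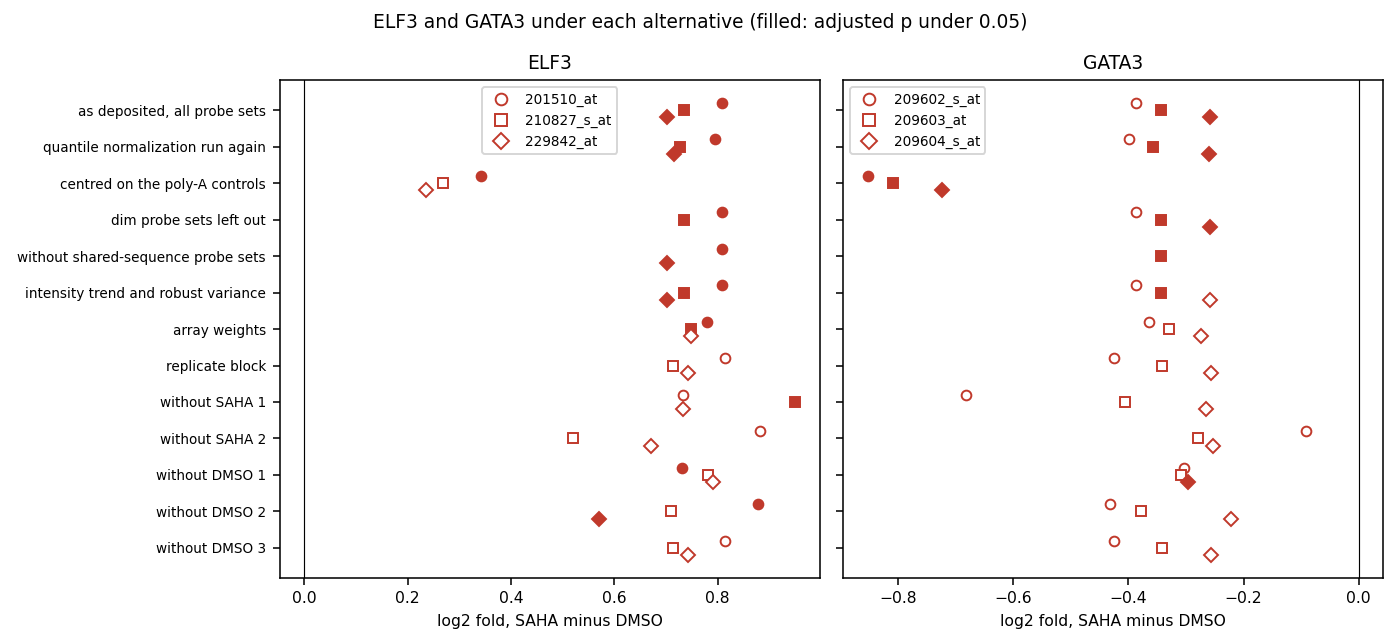
Log2 fold, SAHA minus DMSO (horizontal axis), of the 3 ELF3 probe sets and the 3 GATA3 probe sets under each processing alternative (rows), filled where the limma adjusted p is under 0.05. All ELF3 points lie above 0 and all GATA3 points below 0, but 25 of the 30 points in the rows that leave out an array are open, as are all 6 in the replicate block row.

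The window around the start of ELF3 is printed because it is the member that rose, with those of FOXA1 and SPDEF, the other members with a single listed start, beside it. Each holds 250 bases before to 50 bases after the start, from RefSeq on GRCh38.p14, 5′ to 3′ on the gene's strand. Capitals mark 2 motifs, each searched on both strands, which share no base here. They are the ETS core with the letters GGAA and the TATA box with the letters TATAAA. The windows are chr1:202010337-202010636 on the plus strand for ELF3, chr14:37595200-37595499 on the minus strand for FOXA1 and chr6:34556280-34556579 on the minus strand for SPDEF.
ELF3: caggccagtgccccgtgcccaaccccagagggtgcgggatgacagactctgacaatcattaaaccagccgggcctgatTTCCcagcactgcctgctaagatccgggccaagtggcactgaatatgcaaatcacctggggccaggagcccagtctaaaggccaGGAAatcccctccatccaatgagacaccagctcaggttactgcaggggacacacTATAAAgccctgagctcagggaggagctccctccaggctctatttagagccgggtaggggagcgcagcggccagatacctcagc
FOXA1: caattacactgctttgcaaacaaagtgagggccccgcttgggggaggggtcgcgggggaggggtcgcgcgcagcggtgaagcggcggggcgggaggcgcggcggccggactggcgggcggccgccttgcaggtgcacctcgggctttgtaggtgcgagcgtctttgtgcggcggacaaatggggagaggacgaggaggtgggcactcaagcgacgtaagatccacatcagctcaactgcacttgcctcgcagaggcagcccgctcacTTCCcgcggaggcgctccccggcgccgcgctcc
SPDEF: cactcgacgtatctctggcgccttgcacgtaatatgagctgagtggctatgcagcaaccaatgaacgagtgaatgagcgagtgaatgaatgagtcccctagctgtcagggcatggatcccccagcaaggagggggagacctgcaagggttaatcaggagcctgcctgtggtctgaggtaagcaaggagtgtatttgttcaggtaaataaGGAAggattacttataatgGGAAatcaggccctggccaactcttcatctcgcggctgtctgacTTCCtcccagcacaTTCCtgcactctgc
The ELF3 window held 2 ETS cores, 1 TATA box and 7 CpG dinucleotides, and its GC content was 59%. FOXA1 held 1 ETS core, no TATA box and 34 CpG dinucleotides, with a GC content of 69.3%. SPDEF held 4 ETS cores, no TATA box and 8 CpG dinucleotides, with a GC content of 52%. Over 34796 distinct windows of the same length, 95.5% held an ETS core (median 3), 11.6% held the TATA letters and the median was 14 CpG dinucleotides. The forkhead letters TGTTTAC (3.42% of windows), the GATA letters AGATAA (10.4%) and the receptor half-site AGGTCA (13.8%), searched on both strands, had no match in these 3 windows. RefSeq windows were matched for 7 of the 8 members, 23 windows in all, and TFF1 had no entry. A match of letters is a description of the window and does not show a bound site.

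SPDEF is the other ETS factor among the members. With all arrays fitted it was not called on any of its 5 probe sets, all of which carry shared-sequence names. Its brightest, 214403_x_at, read 8.12 and 8.12 in SAHA cells, against 8.12, 8.12 and 8.08 in DMSO cells (fold 0.02, limma adjusted p = 0.804). Nearly equal values on all arrays left no order between the groups. On 214404_x_at the values were 7.15 and 7.41 in SAHA cells, against 7.37, 7.37 and 7.49 in DMSO cells (fold -0.13, 95% interval -0.39 to 0.13, limma adjusted p = 0.425). The upper limit of the intervals over the 5 probe sets was 0.18, a 1.14-fold rise.

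TFF1, the oestrogen-induced trefoil peptide, read 6.42 and 6.65 on the SAHA arrays, against 6.42, 6.42 and 6.37 on the DMSO arrays. SAHA 2 was the highest array, while SAHA 1 shared its value with DMSO arrays. The fold was 0.13 (95% interval -0.08 to 0.35; limma adjusted p = 0.363), so a rise of up to 1.27-fold lay within the interval.

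Equal values were common among the members. Exactly the same deposited value, with no tolerance, stood on 2 or more arrays for 20 of the 31 member probe sets, against 52.4% of all probe sets. Of the 31, 18 lay below the median level. The deposited table gives no detection call, so the signal over background of a dim probe set is unknown, and a small change there may not be measurable. This holds for PGR and FOXA1, whose 4 probe sets all lay below the median level, and for all 6 of ESR2. Also below the median lay 6 of the 9 ESR1 probe sets, 1 of the 3 of ELF3 and the only TFF1 probe set, at percentile 49.2.

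Paralogues of the members were read from the brightest probe set of each gene. Of 14 measured, 1 rose (7.14%) and 3 fell (21.4%), with a median fold of -0.07. Over all genes these values were 12.0%, 13.5% and -0.03. The 3 that fell were ETS factors of the ELF group, to which ELF3 belongs by name. ELF4 averaged 9.84 ± 0.04 in SAHA cells (SD, n = 2) and 10.57 ± 0.15 in DMSO cells (SD, n = 3), a fold of -0.73 ± 0.10 (SE; limma adjusted p = 0.0141). ELF2 had a fold of -0.48 ± 0.11 (SE; limma adjusted p = 0.0482) and ELF1 of -0.36 ± 0.08 (SE; limma adjusted p = 0.0401). For each of these factors the SAHA arrays lay below all DMSO arrays, while for ELF3 they lay above. The calls of ELF1 and ELF2 ended with each of the 5 arrays left out (limma adjusted p = 0.0563 to 0.172). That of ELF4 ended with any array but DMSO 1 left out (0.0571 to 0.099).

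TFF2, a trefoil peptide of the stomach, was the paralogue that rose, with 8.78 and 8.96 in SAHA cells, against 8.40, 8.49 and 8.40 in DMSO cells (fold 0.44 ± 0.07, SE, limma adjusted p = 0.0221). Its call ended with any array but SAHA 1 left out (limma adjusted p = 0.0586 to 0.102), and its fold was -0.03 centred on the poly-A controls. TFF3 was not called (fold -0.14, limma adjusted p = 0.380). EHF, another ETS factor of epithelial cells, had a fold of 0.30 and GATA6 of 0.65, and neither was called on its brightest probe set (limma adjusted p = 0.0524 and 0.0526). Of the 6 EHF probe sets 2 were called higher, and EHF was called with its probe sets averaged (fold 0.31, limma adjusted p = 0.00562). GATA6 was likewise called when averaged, at a fold of 0.32 (limma adjusted p = 0.0317).

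**Figure D4:**
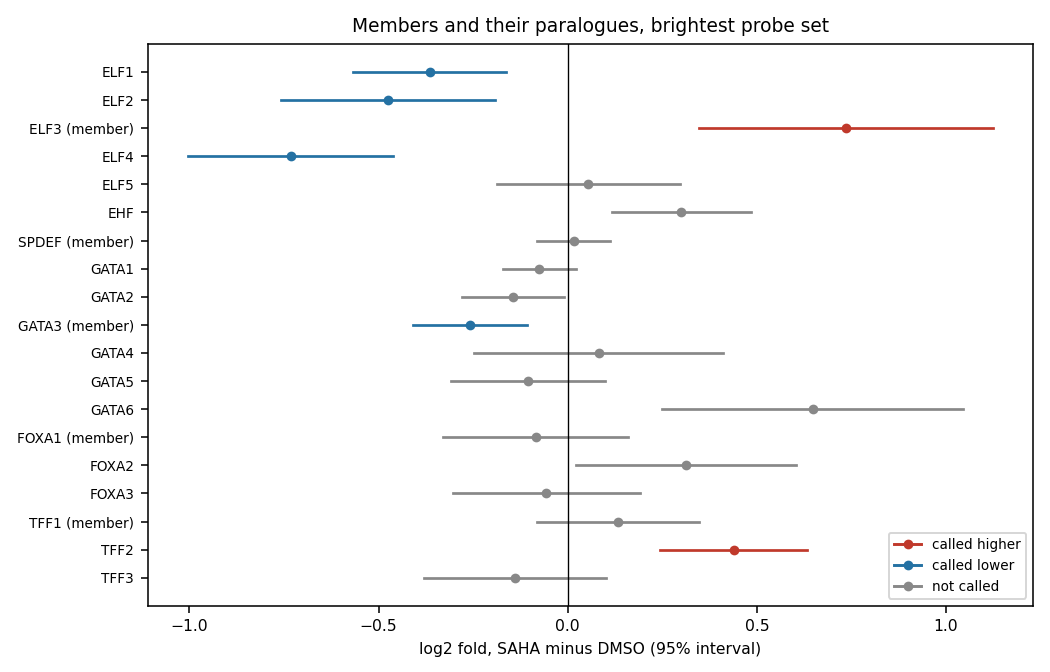
Log2 fold, SAHA minus DMSO (horizontal axis), of the brightest probe set of the members and their paralogues, with 95% intervals from limma. ELF3 lies at 0.73 while ELF1, ELF2 and ELF4 lie between -0.73 and -0.36.

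Luminal and oestrogen-responsive genes outside the members moved in both directions. Of 34 listed genes 33 were measured and 1 was not analysed here. By the brightest probe set, 9 rose (27.3%) and 4 fell (12.1%), with a median fold of 0.17. Over all genes these values were 12.0%, 13.5% and -0.03. In the fits without 1 array, 4 to 7 of the list rose (4 without SAHA 2 or DMSO 2) and 0 to 2 fell (0 without DMSO 2 or DMSO 3). Without shared-sequence probe sets 25 genes were measured, 5 rose and 1 fell, and the median fold was -0.01. Over all probe sets in that fit 3164 rose and 2824 fell of 39114. Genes with only shared-sequence probe sets were absent there, among them ANXA9, CDH1 and MUC1, which rose above, and EPCAM and ERBB2, which fell. ANXA9, an annexin, read 7.86 and 8.11 in SAHA cells, against 6.06, 6.46 and 6.14 in DMSO cells, and rose 3.40-fold (fold 1.77 ± 0.15, SE, limma adjusted p = 0.00478). ERBB3, the receptor tyrosine kinase that pairs with ERBB2, read 9.51 and 9.57 in SAHA cells, against 8.10, 7.85 and 7.83 in DMSO cells, and rose 3.06-fold (limma adjusted p = 0.00252). The SAHA arrays stood more than 1 log2 unit above every DMSO array for both genes, and both calls held with each array left out. With the probe sets of a gene averaged their folds were 1.19 and 0.61. Both ANXA9 probe sets were called higher, and 2 of the 5 for ERBB3. The epithelial cadherin CDH1 had a fold of 1.64 on its brightest probe set, at percentile 28.2 of level, and of 1.45 to 1.82 with each array left out. Its other probe set, at percentile 16.3, had a fold of -0.10 (limma adjusted p = 0.386), and both averaged gave 0.77. The other 6 genes that rose had folds of 0.34 to 0.94.

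Among the luminal genes that fell, XBP1, a transcription factor of secretory luminal cells, read 8.68 and 8.16 in SAHA cells, against 9.90, 9.78 and 9.69 in DMSO cells (fold -1.37 ± 0.18, SE, limma adjusted p = 0.0117). Its call ended without any 1 of the DMSO arrays (limma adjusted p = 0.0597 to 0.0692), and its fold with probe sets averaged was -0.78. EPCAM, an epithelial adhesion molecule, had a fold of -0.72 ± 0.11 (SE; limma adjusted p = 0.0193), lost with each array left out (0.0563 to 0.089). ERBB2, the receptor known as HER2, read 8.29 and 8.48 in SAHA cells, against 8.88, 9.05 and 9.14 in DMSO cells (fold -0.64 ± 0.11, SE, limma adjusted p = 0.0229). The other 2 probe sets of ERBB2 were not called, the averaged fold was -0.36, and the call ended with any array but DMSO 1 left out (limma adjusted p = 0.0721 to 0.130). The 4 keratins of the list differed. KRT8 and KRT18 were not called, with folds of 0.58 and 0.18 (limma adjusted p = 0.106 and 0.331), while KRT19 and KRT7, named after their values were seen, rose (limma adjusted p = 0.0154 and 0.00860). With probe sets averaged KRT19 had 0.50 and KRT7 0.29, and KRT7 had -0.06 without shared-sequence probe sets. The call of KRT19 ended with any array but DMSO 1 left out (limma adjusted p = 0.0513 to 0.106) and that of KRT7 without SAHA 1, SAHA 2 or DMSO 2 (0.0558 to 0.0622). The cyclin CCND1 was not called (fold 0.17, limma adjusted p = 0.199). GREB1, an oestrogen target named after its values were seen, had a fold of -0.02 on its brightest probe set (limma adjusted p = 0.843), and 1 of its 3 probe sets was called lower.

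Basal and mesenchymal genes gave similar shares. Of 23 listed genes 18 were measured and 5 were not analysed here. Of the 18 measured, 5 rose (27.8%) and 2 fell (11.1%), with a median fold of 0.01 (0.24 without shared-sequence probe sets, over 15 genes). KRT15, a keratin of basal epithelium, read 8.50 and 8.50 in SAHA cells, against 7.60, 7.55 and 7.63 in DMSO cells (fold 0.91 ± 0.04, SE, limma adjusted p = 0.00173), and its call held with each array left out. ACTA2, the smooth muscle actin of myoepithelial cells, had a fold of 0.76 and EGFR, the epidermal growth factor receptor, of 0.66 (limma adjusted p = 0.0125 and 0.00730). Neither was called with the probe sets of the gene averaged (0.21 and 0.24). The call of ACTA2 ended with any array but DMSO 1 left out (limma adjusted p = 0.0533 to 0.101) and that of EGFR without SAHA 1 or SAHA 2 (0.0590 to 0.0665). The matrix protein FN1 and the mesenchymal transcription factor SNAI2, named after their values were seen, also rose, with folds of 0.41 and 0.44 (limma adjusted p = 0.0111 and 0.0121). The FN1 call ended without SAHA 1 or DMSO 3 (limma adjusted p = 0.0608 to 0.0640) and the SNAI2 call without any 1 of the DMSO arrays (0.0552 to 0.0656). Centred on the poly-A controls their folds were -0.06 and -0.02 and neither was called. The membrane linker MSN and the receptor kinase AXL fell, with folds of -0.37 and -0.33 (limma adjusted p = 0.0199 and 0.0315). The AXL call ended with each array left out (limma adjusted p = 0.0523 to 0.123) and the MSN call with any but DMSO 3 (0.0650 to 0.0867). The list's counts were 2 to 4 higher and 0 to 1 lower with each array left out. The counts without SAHA 1 or DMSO 3 were 2 higher.

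Related receptors, coregulators and chaperones of the steroid receptors numbered 25 in the list, of which 20 were measured and 5 were not analysed here. Of the 20, 2 rose (10%) and 4 fell (20%), against 12.0% and 13.5% of all genes, with a median fold of -0.03. NR3C2, the mineralocorticoid receptor, read 10.22 and 10.10 in SAHA cells, against 8.86, 8.81 and 8.73 in DMSO cells. It rose 2.57-fold (fold 1.36 ± 0.06, SE, limma adjusted p = 0.00182), and its call held with each array left out. PGRMC2, a membrane-associated progesterone receptor component, read 11.86 and 11.16 in SAHA cells, against 10.06, 10.19 and 10.15 in DMSO cells (fold 1.38 ± 0.22, SE, limma adjusted p = 0.0207). All SAHA arrays lay above the DMSO arrays for both genes, though the SAHA arrays of PGRMC2 lay far apart. The PGRMC2 call on its brightest probe set ended without any 1 of the DMSO arrays (limma adjusted p = 0.0924 to 0.103). The other probe set of PGRMC2 was also called higher. It averaged 11.38 in SAHA cells and 9.43 in DMSO cells (fold 1.95 ± 0.096, SE, limma adjusted p = 0.00189). Without DMSO 2 or DMSO 3 only 1 gene of the list was called higher, and without SAHA 1, DMSO 1 or DMSO 3 only 2 were called lower.

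Of the cofactors that fell, the acetyltransferase CREBBP read 9.51 and 9.29 in SAHA cells, against 10.30, 10.41 and 10.27 in DMSO cells (fold -0.93 ± 0.09, SE, limma adjusted p = 0.00554). Its call held with each array left out, and its fold with 4 probe sets averaged was -0.47. The steroid receptor coactivator NCOA2 had a fold of -1.03 ± 0.18 (SE; limma adjusted p = 0.0270), lost without any 1 of the DMSO arrays (0.107 to 0.117) and -0.40 with its probe sets averaged. GPER1, the membrane oestrogen receptor coupled to G proteins, read 7.09 and 7.01 in SAHA cells, against 7.87, 7.69 and 7.81 in DMSO cells (fold -0.74 ± 0.07, SE, limma adjusted p = 0.00543). Its call was at the threshold without SAHA 1 (limma adjusted p = 0.05), and its fold was -0.45 with probe sets averaged.

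**Figure D5:**
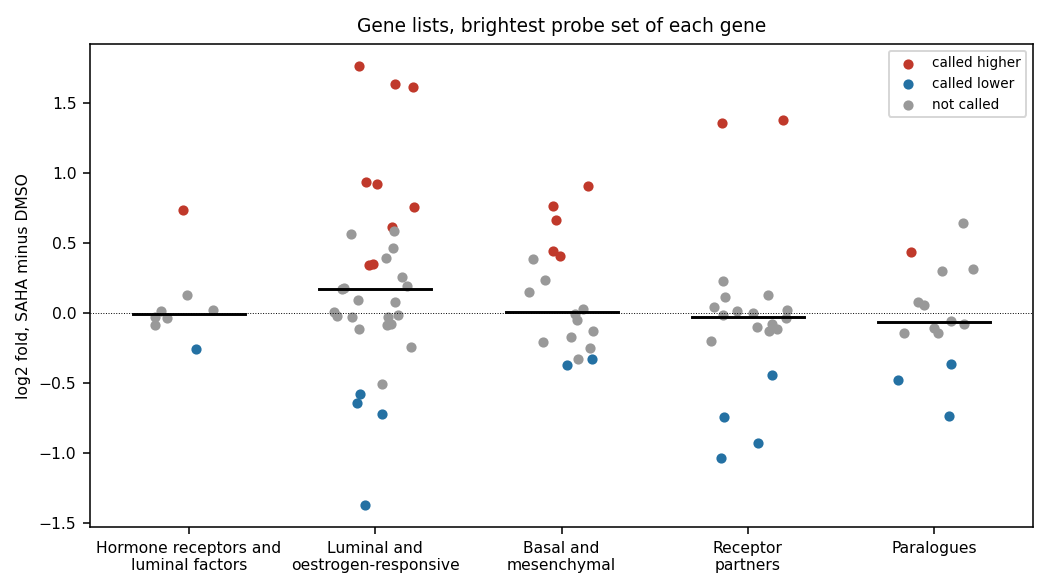
Log2 fold, SAHA minus DMSO (vertical axis), of the brightest probe set of each gene in the members and 4 gene lists, with bars for medians. The luminal median is 0.17 and those of the other lists lie between -0.07 and 0.01. Without shared-sequence probe sets fewer genes are measured, and the luminal median is -0.01 (25 genes) and the basal one 0.24 (15 genes).

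The genes whose profile over the 5 arrays was most like that of ELF3 were sought among non-members, as the smallest root mean square difference of log2 values, each taken from its own DMSO mean. They were DNAAF11, an assembly factor of ciliary dynein (difference 0.0365), SERPINB4, a serpin of squamous epithelium (0.0457), and ABTB2 (0.0460). Their folds were 0.73 each, called for DNAAF11 and ABTB2 (limma adjusted p = 0.0219 and 0.0147) and not for SERPINB4 (0.0678). For GATA3 they were CABS1 (0.00734), ATXN2L (0.0257) and GAR1 (0.0265), with folds of -0.26 to -0.24, and none of these was called (limma adjusted p = 0.0509 to 0.0592). CABS1 and SERPINB4 were dim, at percentiles 1.74 and 8.80 of level. Each gene was read from its brightest probe set, for ELF3 210827_s_at. There SAHA 2 read above SAHA 1, while on 201510_at it read below.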

How the data were processed

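Expression was read from 5 single-colour oligonucleotide arrays. Per the submitters' processing notes, the authors used RMA in R 2.12, which removes background, makes the intensity distributions of the arrays alike and gives 1 value per probe set. A shift of all transcripts together is therefore lost. The deposited values are intensity values on a linear scale, and log2 of the deposited values was taken before testing. In the labels, the RNA extraction is timed from a transfection on which the other labels are silent.

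The annotation gave 1 gene for 41091 of 54675 probe sets, several for 1801 and none for 11721, and 62 were array controls. Of the single-gene probe sets, 41037 were matched by gene identifier to a RefSeq symbol, which was used whether or not it differed. All 54613 probe sets other than controls were fitted with limma 3.58.1 in R 4.3.3, using lmFit and eBayes without covariates. Tests were two-sided, with 3 residual and 1.39 prior degrees of freedom, and p-values were adjusted by Benjamini-Hochberg over all 54613 at a threshold of 0.05. A gene was represented by its brightest probe set over all arrays. Levels of different probe sets are not compared beyond their percentile, since probes differ in affinity. The fit was tested on simulated data.

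The members and lists were chosen with earlier results of these data known. Named genes were all members, the 3 called genes with the largest folds in each direction of a list, called paralogues, a fixed panel, and the 3 genes most like each called member. Alternatives covered scaling, dim probe sets (below percentile 40), how probe sets stand for a gene, limma's variance settings and array weights, each array left out, and a replicate block. Figures were drawn with matplotlib 3.10.9.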

Additional observations from a re-analysis of the deposited data

How the results depend on the processing

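The number of arrays limits all calls, and with a SAHA array left out the lone SAHA array is assumed to vary like the DMSO arrays. Such fits have fewer residual degrees of freedom. The cause of the other changes was not tested. With each array left out, counts over all probe sets were 2305 to 3311 higher and 2294 to 4042 lower. Member probe sets were 0 to 2 higher and 0 to 3 lower, and member genes 0 to 1 higher and 0 to 1 lower. The luminal list gave 4 to 7 higher and 0 to 2 lower, the basal list 2 to 4 and 0 to 1, the receptor partners 1 to 2 and 2 to 4, and the paralogues 0 to 1 and 0 to 1.

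Centring on the poly-A controls gave 1 member probe set higher and 28 lower (all probe sets 2269 and 45219), and 0 member genes higher and 7 lower. It gave 18 lower luminal genes, 2 higher and 11 lower basal genes, 17 lower partners, and 0 higher and 10 lower paralogues. Folds that turned negative there were those of TFF1 (-0.33), PGR (-0.44 on both probe sets), SPDEF 214403_x_at (-0.45), FOXA1 237086_at (-0.44), and ESR1 205225_at, 211234_x_at and 215551_at (-0.45 each) and 211627_x_at (-0.40), all less negative than the median of all probe sets, -0.49. Without shared-sequence probe sets, 1 member probe set was lower (3164 and 2824 over all), with 5 higher and 1 lower luminal genes, 1 lower basal gene and 2 lower partners. With an intensity trend and robust variance, 1 member probe set and 0 member genes were lower (5266 higher and 5184 lower over all probe sets). With array weights 0 of each, 1 basal gene and 1 paralogue were lower (4215 higher and 4183 lower over all probe sets). Paralogues called higher numbered 3 with quantile normalization run again, dim probe sets left out, 1 probe set per gene, probe sets averaged or an intensity trend, and averaging gave 4 higher partners. Over all probe sets, quantile normalization run again gave 5616 higher and 5756 lower. Leaving out dim probe sets gave 5259 higher and 5465 lower of 32768.

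Same-numbered SAHA and DMSO arrays had deviations from their group means with correlations of 0.0912 and -0.0445. With 2 SAHA arrays these deviations are exact opposites, so each DMSO array gives the same value with either sign. The correlations therefore cannot show whether the numbers pair the arrays, and the labels do not say. A replicate block by number left 1 residual degree of freedom, and limma then called 0 probe sets higher and 0 lower in all, in the members and in each list. The lowest adjusted p was 0.0806, while 12961 probe sets, 3 of them members (2 higher and 1 lower), had an unadjusted p under 0.05.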
